A study of Mus musculus with 8 samples.

Results

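The D cyclins, their kinases and the inhibitors that hold them back were followed as a group of 9 genes, Ccnd1, Ccnd2, Ccnd3, Cdk2, Cdk4, Cdk6, Cdkn1b, Cdkn2c and Cdkn2d, chosen by name from the 55359 genes listed. RNA sequencing covered 8 mouse thymocyte samples taken at 5 weeks of age and sorted as CD4 and CD8 double positive (DP) cells with absent to intermediate surface TCR beta. The 4 Lck-cre samples (genotype LSL-Sting1-N153S;Lck-cre, replicates 5 to 8) expressed Cre from the Lck promoter, active from T cell progenitors onward. The 4 control samples (genotype LSL-Sting1-N153S/+, replicates 1 to 4) carried the same conditional allele without Cre. LSL stands for a stop cassette between loxP sites, which Cre removes, and N153S is a gain-of-function form of STING, the sensor of cyclic dinucleotides. All 8 samples thus hold the allele, and only the Lck-cre ones have Cre. The females were Lck-cre replicate 5 and control replicate 1, and the other 3 samples of each group were male. No source used here says that the samples are separate animals, and p-values therefore cover the spread between these 8 samples, which may be technical.

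Cyclins D1, D2 and D3 bind the kinases CDK4 and CDK6 and start the phosphorylation of the retinoblastoma protein, which otherwise keeps E2F factors silent. Cyclin E with CDK2 completes that step, and the cell enters S phase. The INK4 proteins, among them p18 (Cdkn2c) and p19 (Cdkn2d), bind CDK4 and CDK6 directly, whereas p27 (Cdkn1b) binds cyclin and kinase complexes and restrains CDK2. In the mouse thymus cyclin D3 is known as the D cyclin of the burst of division that follows the pre-TCR signal, and most DP cells rest after that burst.

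Expression is given as FPKM, fragments scaled to transcript length and to the mapped fragments of the sample. Levels set side by side between genes depend on this measure, and where per-base coverage gave another order, both are given. Sting1, as a check of the labels, lay at 167 ± 71.2 FPKM in the Lck-cre samples and 13.1 ± 1.70 FPKM in the controls (SD, n = 4 each), and replicate 6 had the lowest Lck-cre value, 85.4 FPKM. Counts of reads were not used here. The commonest ratio of per-base coverage to FPKM, which moves with depth, was 7.65 to 7.86 in the Lck-cre samples and 7.53 to 7.89 in the controls, so depth differed little between the groups. Of 9 DP stage markers 4 fell (Cd4, Rag1, Rag2 and Cd1d1) and 1, Ptcra, rose, by the limma test described below. Among all tested genes 10.4% fell and 15.4% rose. The summed level of the 9 markers was 3198 to 4229 FPKM in Lck-cre, against 4278 to 4647 FPKM in the controls. In bulk samples a lower share of cells of a type and less RNA per cell cannot be told apart.

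Of the 9 genes, 7 passed the filter on low values (4 or more samples at 1 FPKM or above), and Ccnd1 and Ccnd2 did not. By limma across 12337 genes, with a term for sex and a Benjamini-Hochberg adjusted p under 0.05 as the threshold, Cdk4, Cdkn2c and Cdk2 rose in the Lck-cre samples, Cdkn1b fell, and Ccnd3, Cdk6 and Cdkn2d did not pass. FPKM ranges of the groups lay apart in these 4 called genes and in Ccnd2, and in 29.4% of all tested genes, which do not include Ccnd2. Among all tested genes 25.8% passed, 15.4% upward and 10.4% downward, and these shares are the background for the 3 and the 1. The median log2 change of the 7 tested genes was 0.09, against 0.01 over all tested genes, and the median size of the change was 0.28, against 0.18. With TPM values in place of FPKM, 38.6% of all called genes were higher in Lck-cre, against 59.8% with FPKM, while the median log2 change of all tested genes moved by less than 0.1 under every scaling tried.

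**Figure D1:**
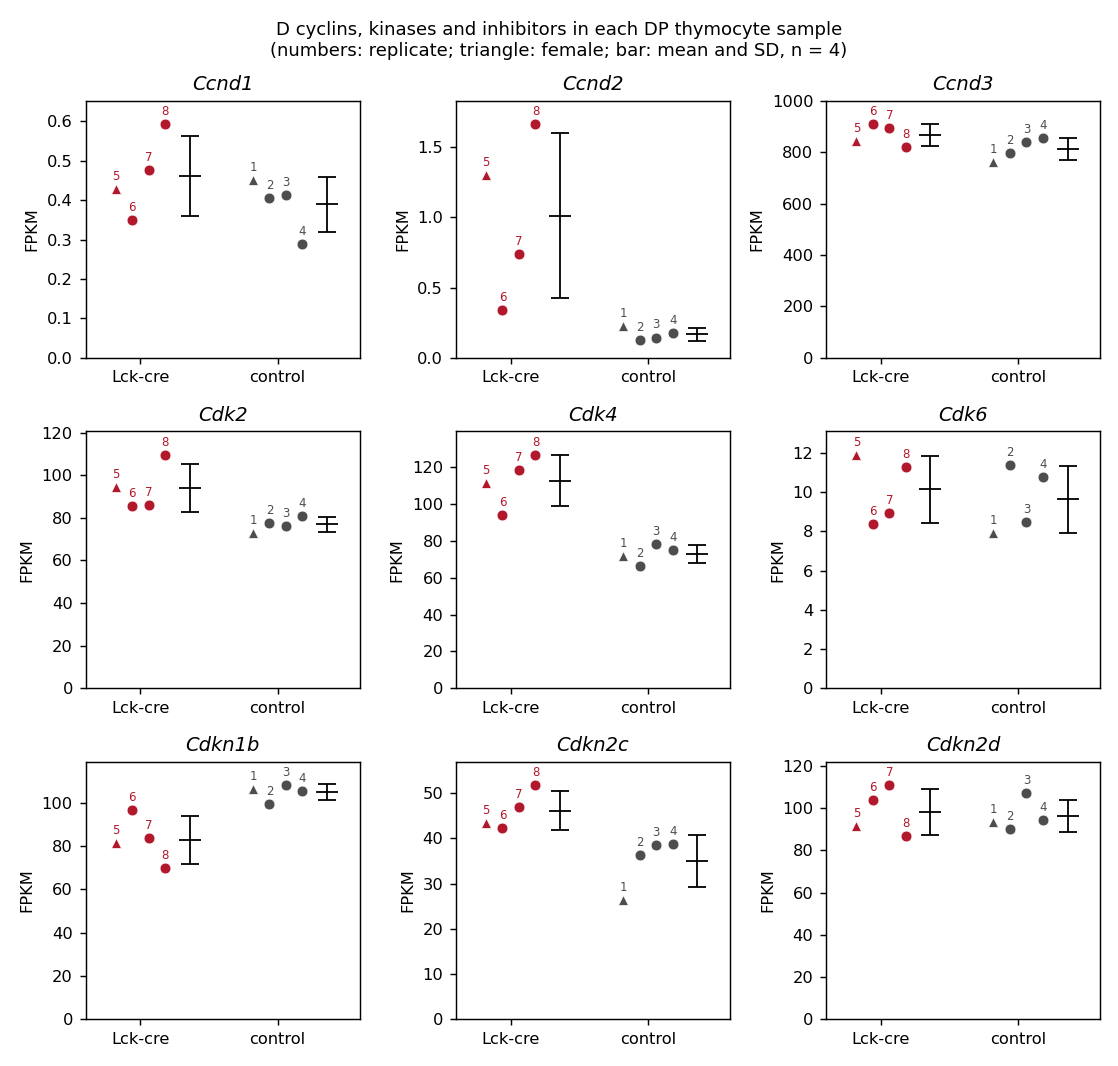
FPKM of the 9 genes in each sample, 1 panel per gene, with Lck-cre left of control, the replicate number above each point, females as triangles, and the mean and SD (n = 4) beside the points. The groups lie apart in Ccnd2, Cdk2, Cdk4, Cdkn1b and Cdkn2c and overlap in Ccnd1, Ccnd3, Cdk6 and Cdkn2d.

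By FPKM cyclin D3 supplied nearly all D cyclin transcripts in both groups. Ccnd3 was read at 844.8, 910.1, 894.5 and 820.2 FPKM in Lck-cre replicates 5 to 8 and at 763.2, 797.9, 839.3 and 857.7 FPKM in control replicates 1 to 4. The groups overlapped, and all 8 values lay within a narrow band. The log2 change was 0.09 (SE 0.08, adjusted p = 0.405 by limma), with a 95% confidence interval of the fold from 0.943 to 1.20. Its share of the summed FPKM of the 3 D cyclins was 99.7% to 99.9% in Lck-cre and 99.9% in each control.

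Cyclin D2, which is prominent in T cell progenitors and in activated lymphocytes, was scarce but higher in every Lck-cre sample than in any control. Ccnd2 lay at 1.302, 0.342, 0.739 and 1.66 FPKM in Lck-cre replicates 5 to 8 and at 0.227, 0.124, 0.144 and 0.177 FPKM in control replicates 1 to 4. Replicate 8 had the highest value and replicate 6 the lowest of the Lck-cre samples. The means were 1.01 ± 0.586 FPKM in Lck-cre and 0.168 ± 0.0449 FPKM in the controls (SD, n = 4 each), a fold of 6.02, with a two-sided p = 0.0286 by exact permutation of the means, the smallest that 4 against 4 samples allow. In limma with no filter on low values its log2 change was 1.09 (SE 0.28, adjusted p = 0.0751 by limma), so it did not pass there. These levels rest on a mean coverage of 0.895 to 4.37 reads per base in Lck-cre, against 0.301 to 0.492 in the controls. The share of Ccnd2 in the summed D cyclin FPKM was 0.0376% to 0.202% in Lck-cre, against 0.0155% to 0.0297% in the controls.

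Markers of other cells moved in the same samples, and their part in the Ccnd2 values was not tested. As the background for the counts that follow, 15.4% of all tested genes were called higher in Lck-cre and 10.4% lower. Of 6 macrophage and dendritic cell markers, 2 passed the filter and were called higher, Cd68 and H2-Aa. H2-Aa passed only through the Lck-cre samples, so that its direction and its lack of overlap were fixed by the filter. The other 4 (Csf1r, Itgax, Lyz2 and C1qa) were below 1 FPKM in every sample, and all 4 had a higher mean in Lck-cre. Csf1r and Lyz2 did not overlap between the groups, and neither did 29.4% of all tested genes. That share leaves out genes below the filter, such as these. For the whole list the summed level was 8.74 to 15.6 FPKM in Lck-cre, against 5.75 to 6.84 FPKM in the controls. Most of this sum was Cd68 alone, with means of 8.50 FPKM in Lck-cre and 5.74 FPKM in the controls. Csf1r lay at 0.0221 to 0.0626 FPKM in Lck-cre, against 0 to 0.0116 FPKM in the controls. Of 4 gamma delta T cell markers, 3 passed the filter and all 3 rose (Trdc, Trgc1 and Trgc2). The summed level of the list was 50.8 to 94.9 FPKM in Lck-cre, against 29.8 to 31.2 FPKM in the controls, where Trdc alone had a mean of 27.2 FPKM. Sox13 did not pass the filter, and its groups overlapped (means of 0.636 FPKM in Lck-cre and 0.275 FPKM in the controls). Among 6 markers of double negative and immature thymocytes 3 were tested and Dtx1 rose, the summed level being 10.9 to 21.7 FPKM in Lck-cre, against 8.79 to 13.9 FPKM in the controls. Of 5 mature T cell markers 4 were tested and Klf2 rose, with sums of 83.5 to 90.8 FPKM in Lck-cre, against 86.2 to 92.6 FPKM in the controls. Of the B cell markers, Cd79b was the tested one and did not pass, at 11.9 ± 3.26 FPKM in Lck-cre and 14.3 ± 2.49 FPKM in the controls (SD, n = 4 each, limma adjusted p = 0.300), and Ms4a1 was listed at 0 in all 4 Lck-cre samples. The list for thymic epithelium and stroma had 1 tested gene, Epcam, which was not called. Its summed level was at most 5.16 FPKM in Lck-cre and 5.62 FPKM in the controls, mostly Epcam. Krt5, Krt8, Foxn1 and Col1a1 were below 1 FPKM in every sample, with higher means in Lck-cre, and Pdgfra was at 0 throughout. Of these, Krt8 alone did not overlap between the groups (0.162 to 0.238 FPKM in Lck-cre, against 0.0378 to 0.110 FPKM in the controls). It too lies outside the 29.4% share. The list for red cells had 0 tested genes (summed level at most 0.239 FPKM in Lck-cre and 0.123 FPKM in the controls).

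Cyclin D1, the D cyclin of many epithelia, stayed below 1 FPKM in every sample. Ccnd1 lay at 0.429, 0.349, 0.477 and 0.593 FPKM in Lck-cre replicates 5 to 8 and at 0.450, 0.406, 0.413 and 0.289 FPKM in control replicates 1 to 4. The groups overlapped, and exact permutation of the means gave a two-sided p = 0.314. By FPKM, Ccnd1 was above Ccnd2 in all 4 controls, whereas Ccnd2 was above Ccnd1 in Lck-cre replicates 5, 7 and 8, and the ratio of Ccnd2 to Ccnd1 was 0.982 to 3.03 in Lck-cre, against 0.305 to 0.614 in the controls. By per-base coverage Ccnd2 was above Ccnd1 in Lck-cre replicates 5 and 8 alone, and the ratio was 0.414 to 1.37 in Lck-cre, against 0.124 to 0.268 in the controls.

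Of the kinases, Cdk4 changed most. Cdk4, the main catalytic partner of D cyclins in many cell types, lay at 111.3, 93.9, 118.3 and 126.6 FPKM in Lck-cre replicates 5 to 8 and at 71.9, 66.2, 78.2 and 74.8 FPKM in control replicates 1 to 4. Every Lck-cre sample was above every control. The means were 113 ± 13.9 FPKM in Lck-cre and 72.8 ± 5.09 FPKM in the controls (SD, n = 4 each), with a log2 change of 0.62 (SE 0.10, adjusted p = 0.00754 by limma) and a 95% confidence interval of the fold from 1.32 to 1.79. A larger change in either direction was found in 5.33% of the tested genes. This call held under every alternative tried, with adjusted p of 0.00128 to 0.0459 by limma.

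Cdk2, the partner of cyclins E and A, lay at 94.4, 85.7, 85.8 and 109.6 FPKM in Lck-cre replicates 5 to 8 and at 72.8, 77.5, 76.3 and 81.0 FPKM in control replicates 1 to 4. The groups did not overlap, but the lowest Lck-cre sample and the highest control were only a few FPKM apart. The log2 change was 0.28 (SE 0.09, adjusted p = 0.0431 by limma), and larger changes were found in 30.8% of the tested genes. The call ended in 6 of the 8 fits that each leave out 1 sample (adjusted p of 0.0675 to 0.147 by limma, without Lck-cre replicates 5 or 8 or any of the controls) and with TPM values (adjusted p = 0.121 by limma).

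Cdk6, which can replace CDK4 and is known to be needed in early mouse thymocytes, lay at 11.9, 8.39, 8.94 and 11.3 FPKM in Lck-cre replicates 5 to 8 and at 7.91, 11.4, 8.48 and 10.8 FPKM in control replicates 1 to 4. The samples of both groups were interleaved. Its log2 change was 0.07 (SE 0.15, adjusted p = 0.749 by limma), with an interval of the fold from 0.832 to 1.33, so a change of the size seen in Cdk4 lay outside it. The female sample was the highest of the Lck-cre group and the lowest of the controls, and among males alone the log2 change was -0.09. Within each sample the ratio of Cdk4 to Cdk6 was 9.35 to 13.2 in Lck-cre, against 5.83 to 9.23 in the controls.

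The inhibitors divided. Cdkn1b, which encodes p27, lay at 81.5, 96.8, 83.7 and 69.8 FPKM in Lck-cre replicates 5 to 8 and at 106.3, 99.7, 108.3 and 105.8 FPKM in control replicates 1 to 4. Every Lck-cre sample was below every control, and replicate 6 came close to the lowest control. The means were 82.9 ± 11.04 FPKM in Lck-cre and 105.0 ± 3.72 FPKM in the controls (SD, n = 4 each), with a log2 change of -0.35 (SE 0.09, adjusted p = 0.0284 by limma) and a fold interval from 0.678 to 0.911. Its call ended in 6 of the 8 fits that each leave out 1 sample (adjusted p of 0.0567 to 0.0987 by limma, without Lck-cre replicates 5 or 7 or any of the controls).

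Cdkn2c, which encodes the INK4 protein p18, moved the other way. It lay at 43.4, 42.3, 47.0 and 51.8 FPKM in Lck-cre replicates 5 to 8 and at 26.4, 36.3, 38.4 and 38.8 FPKM in control replicates 1 to 4. The groups did not overlap, and the female control was well below the 3 male controls. The log2 change was 0.41 (SE 0.09, adjusted p = 0.0158 by limma), with a fold interval from 1.15 to 1.53. Without 1 of the females the log2 change was 0.31 and the call ended (adjusted p of 0.0670 without control replicate 1 and 0.0673 without Lck-cre replicate 5, by limma).

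Cdkn2d, which encodes the INK4 protein p19 and is abundant in resting thymocytes, lay at 91.7, 103.9, 110.9 and 87.1 FPKM in Lck-cre replicates 5 to 8 and at 93.4, 90.0, 107.4 and 94.5 FPKM in control replicates 1 to 4. The groups overlapped over nearly their whole range. The log2 change was 0.03 (SE 0.09, adjusted p = 0.845 by limma), with a fold interval from 0.886 to 1.17. The 2 INK4 genes thus stood in a ratio of Cdkn2c to Cdkn2d of 0.408 to 0.595 in Lck-cre, against 0.283 to 0.411 in the controls, which overlap. By coverage the ratio was 0.434 to 0.638 in Lck-cre, against 0.291 to 0.432 in the controls, which just fail to overlap.

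**Figure D2:**
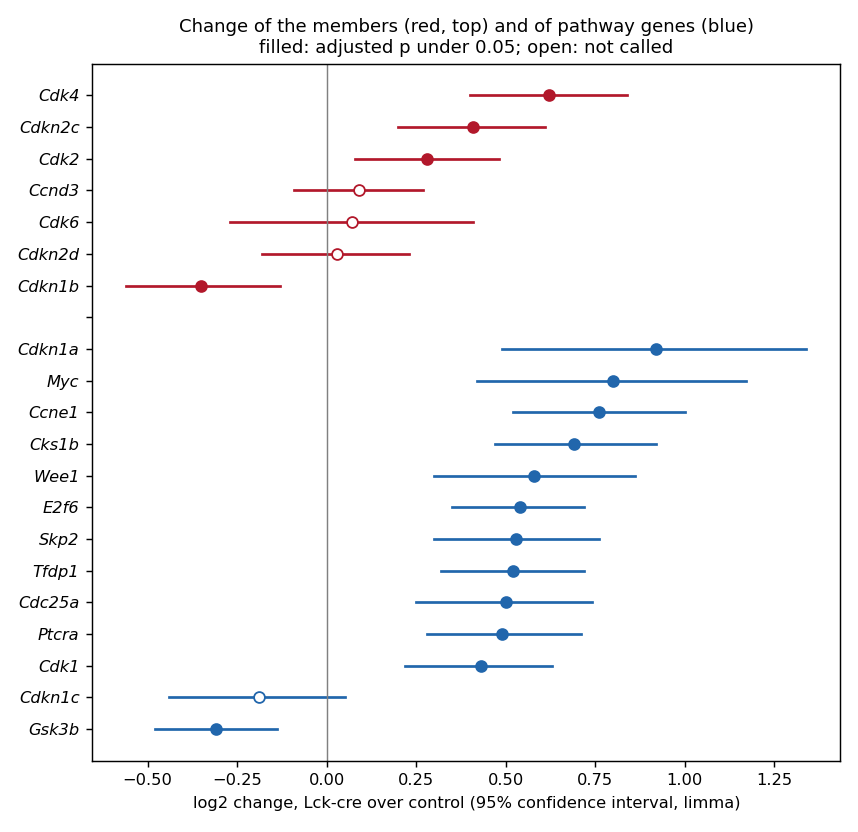
Log2 change (Lck-cre over control) with its 95% confidence interval from limma for the 7 tested genes of the group (red) and for named genes of the pathway lists (blue), filled where the adjusted p was under 0.05. Cdk4 leads the group at 0.62 and Cdkn1b stands lowest at -0.35, while the intervals of Ccnd3, Cdk6 and Cdkn2d include 0.

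By FPKM, Ccnd3 stood far above and Cdk6, Ccnd1 and Ccnd2 below the other genes in both groups. In Lck-cre the order was Ccnd3, Cdk4, Cdkn2d, Cdk2, Cdkn1b, Cdkn2c, Cdk6, Ccnd2 and Ccnd1, and in the controls it was Ccnd3, Cdkn1b, Cdkn2d, Cdk2, Cdk4, Cdkn2c, Cdk6, Ccnd1 and Ccnd2. Neighbours whose sample ranges overlapped were, in Lck-cre, Cdk4 with Cdkn2d, Cdkn2d with Cdk2, Cdk2 with Cdkn1b and Ccnd2 with Ccnd1, and, in the controls, Cdkn1b with Cdkn2d and Cdk2 with Cdk4. By FPKM, Cdk4 thus held the second place in Lck-cre and the fifth in the controls, and Cdkn1b held the fifth in Lck-cre and the second in the controls.

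This order depended on the measure, most of all for Ccnd3. Dividing the deposited per-base coverage by the commonest coverage-to-FPKM ratio of each sample gave a level of 107 ± 5.97 in Lck-cre and 101 ± 3.89 in the controls for Ccnd3 (FPKM units, SD, n = 4 each), beside FPKM means of 867 in Lck-cre and 815 in the controls. For Cdkn2d the same calculation gave 81.0 ± 8.83 in Lck-cre and 79.2 ± 5.98 in the controls, close to its FPKM. By the same calculation Cdk4 held the third place in Lck-cre and the fourth in the controls, and Cdkn1b the fourth in Lck-cre and the third in the controls. Cdk2 came to 36.4 ± 4.27 in Lck-cre and 30.18 ± 1.52 in the controls. Cdkn2c was above it, at 40.6 ± 3.98 in Lck-cre and 30.23 ± 5.26 in the controls, but the sample ranges of these genes overlapped in both groups. The ratio of coverage to FPKM of Ccnd3 was 12.2% to 12.7% of the commonest ratio in all 8 samples, and 9.26% of the tested genes were below 20%. The fold between the groups was the same by either measure for Ccnd3 (1.06), so for Ccnd3 the measure changed the comparison with other genes and not that between genotypes.

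**Figure D3:**
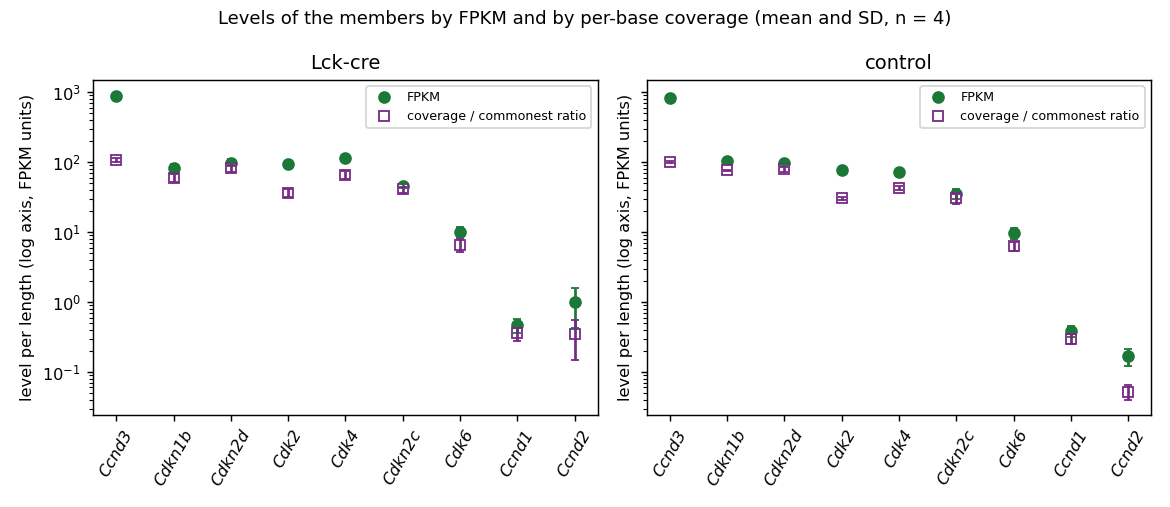
Mean level (SD, n = 4) of the 9 genes in Lck-cre (left) and control (right) on a log axis, as FPKM (filled circles) and as per-base coverage divided by the commonest coverage-to-FPKM ratio of the sample (open squares). Ccnd3 stands at 867 by FPKM but 107 by coverage in Lck-cre, while Cdkn2c and Cdkn2d differ little between the measures.

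Ratios within a sample do not depend on how the sample was scaled, but they depend on the measure, and they are given as descriptions. By FPKM the ratio of Cdk4 to Cdkn1b was 1.37, 0.971, 1.41 and 1.81 in Lck-cre replicates 5 to 8 and 0.676, 0.664, 0.722 and 0.707 in control replicates 1 to 4. Cdk4 was above Cdkn1b in 3 of the 4 Lck-cre samples and below it in all 4 controls, and the same counts were found by coverage. The summed FPKM of the 3 kinases was 188 to 248 in Lck-cre, against 152.7 to 167 in the controls, and that of the 3 inhibitors was 209 to 243 in Lck-cre, against 226 to 254 in the controls. The kinase sum was 0.774 to 1.19 times the inhibitor sum in Lck-cre and 0.642 to 0.697 times in the controls. By coverage it was 0.487 to 0.736 times in Lck-cre and 0.414 to 0.440 times in the controls, so the kinase sum was below the inhibitor sum in all 8 samples, and the groups still lay apart. By FPKM the kinase sums lay apart, whereas the inhibitor sums overlapped, with Cdkn2c higher and Cdkn1b lower in Lck-cre.

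**Figure D4:**
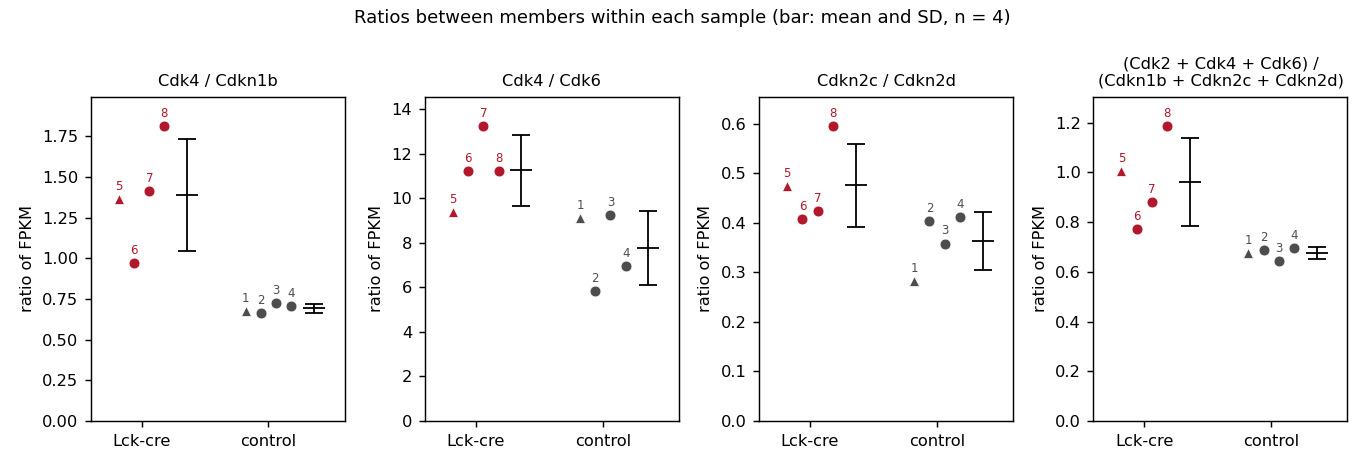
Ratios of FPKM between members in each sample, with Lck-cre left of control, replicate numbers above the points, females as triangles, and the mean and SD (n = 4) beside them. The ratio of Cdk4 to Cdkn1b is at least 0.971 in Lck-cre and at most 0.722 in the controls, while the ratio of Cdkn2c to Cdkn2d overlaps between the groups.

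Other genes of the G1 to S transition, taken from 6 lists with 60 genes, mostly rose or did not pass. Of 56 tested, 22 rose and 1 fell, with a median log2 change of 0.16, against 15.4% upward and 10.4% downward and a median of 0.01 over all tested genes. Some of these genes were already known to move in these data. The same shares over all tested genes are the background for the counts of each list below. All 4 genes of the E and A cyclin list rose, among them Ccne1, the cyclin that activates CDK2 at the start of S phase, at 24.5 ± 3.26 FPKM in Lck-cre and 14.2 ± 1.25 FPKM in the controls (log2 change 0.76), and Cdk1, the mitotic kinase, at 26.5 ± 2.93 FPKM in Lck-cre and 19.6 ± 2.93 FPKM in the controls (log2 change 0.43, SD, n = 4 each).

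Of the 4 CDK inhibitors outside the group, Cdkn1a and Cdkn1c passed the filter. Cdkn1a, which encodes p21, rose to 2.53 ± 0.765 FPKM in Lck-cre, against 1.07 ± 0.171 FPKM in the controls (log2 change 0.92, SE 0.19, adjusted p = 0.0126 by limma), a level far below that of Cdkn1b. Cdkn1c, which encodes p57, had means of 2.47 ± 0.452 FPKM in Lck-cre and 2.90 ± 0.578 FPKM in the controls (limma adjusted p = 0.212). The INK4 genes Cdkn2a and Cdkn2b did not exceed 0.118 and 0.0356 FPKM in any sample, so among INK4 genes Cdkn2c and Cdkn2d accounted for nearly all transcripts detected.

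Among 13 pocket protein and E2F genes 6 rose, namely E2f1, E2f3, E2f6, E2f8, Rbl1 and Tfdp1, and the other 7 did not pass. Tfdp1, the dimer partner of E2F factors, stood at 107 ± 12.2 FPKM in Lck-cre and 74.2 ± 5.74 FPKM in the controls (log2 change 0.52), and E2f6, a repressive E2F, at 8.26 ± 0.783 FPKM in Lck-cre and 5.53 ± 0.289 FPKM in the controls (log2 change 0.54, SD, n = 4 each). Rb1, the retinoblastoma gene, had means of 27.1 ± 0.949 FPKM in Lck-cre and 28.9 ± 1.62 FPKM in the controls (limma adjusted p = 0.273). Of 8 genes that regulate or fold cyclin-dependent kinases 4 rose and the other 4 did not pass. Those that rose were the chaperones Cdc37 and Hsp90ab1, Cdc25a, the phosphatase that activates CDK2 (29.5 ± 4.002 FPKM in Lck-cre and 20.7 ± 1.96 FPKM in the controls, log2 change 0.50), and Wee1, a kinase that inhibits CDK1 and CDK2 (12.9 ± 2.35 FPKM in Lck-cre and 8.43 ± 1.004 FPKM in the controls, log2 change 0.58). Both chaperones overlapped between the groups. Cdc37 ran from 56.9 to 119 FPKM in Lck-cre, against 45.7 to 93.4 FPKM in the controls, and Hsp90ab1 passed narrowly (adjusted p = 0.0483 by limma). The CDK-activating kinase genes Cdk7, Ccnh and Mnat1 did not pass.

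Of 16 genes for the turnover of D and E cyclins and of p27, 5 rose and 1 fell. Skp2, whose ubiquitin ligase marks p27 for degradation, stood at 8.93 ± 0.915 FPKM in Lck-cre and 6.06 ± 0.759 FPKM in the controls (log2 change 0.53, adjusted p = 0.0109 by limma). Cks1b, its cofactor in that reaction, stood at 89.5 ± 10.6 FPKM in Lck-cre and 55.5 ± 9.13 FPKM in the controls (log2 change 0.69, adjusted p = 0.00750 by limma). Gsk3b, a kinase that marks D cyclins for degradation, fell to 22.3 ± 1.03 FPKM in Lck-cre, against 27.9 ± 2.47 FPKM in the controls (log2 change -0.31, adjusted p = 0.0201 by limma). These are transcripts, and the proteins they act on were not measured.

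Of 13 tested inputs known from thymocytes, 2 rose and the other 11 did not pass, with a median log2 change of 0.08. Among all tested genes 15.4% rose and the median was 0.01, so the list as a whole is not set apart by this count. Myc, a growth-promoting transcription factor, stood at 24.0 ± 6.82 FPKM in Lck-cre and 13.2 ± 1.04 FPKM in the controls (log2 change 0.80, adjusted p = 0.0129 by limma), and Ptcra, the pre-TCR alpha chain, at 42.4 ± 6.34 FPKM in Lck-cre and 29.9 ± 3.49 FPKM in the controls (log2 change 0.49, adjusted p = 0.0107 by limma). Notch1 had means of 48.2 ± 12.04 FPKM in Lck-cre and 35.2 ± 1.74 FPKM in the controls (limma adjusted p = 0.0574) and Foxo1, a known activator of Cdkn1b, of 5.03 ± 0.587 FPKM in Lck-cre and 5.79 ± 0.425 FPKM in the controls (limma adjusted p = 0.121).

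Replication and mitosis genes, read as a measure of cycling, moved in the same samples. Of 20 listed, 19 rose by limma and Mki67 did not pass (adjusted p = 0.206), with a median log2 change of 0.60, beside 0.62 for Cdk4, 0.41 for Cdkn2c and 0.28 for Cdk2. Their summed level was 2064 to 2716 FPKM in Lck-cre, against 1299 to 1761 FPKM in the controls, lowest of the Lck-cre group in replicate 6. Mcm3, a subunit of the replicative helicase, stood at 121 ± 19.6 FPKM in Lck-cre and 64.0 ± 8.999 FPKM in the controls and Tyms, or thymidylate synthase, at 39.8 ± 4.42 FPKM in Lck-cre and 23.7 ± 2.60 FPKM in the controls (SD, n = 4 each). The part of a higher share of cycling cells in the values of Cdk4, Cdkn2c and Cdk2 was not tested.

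The tested genes with the most similar pattern over the 8 samples were found for each of the 4 called genes, as the smallest root mean square distance between log2(FPKM + 0.5) values centred on each gene's mean. Tipin, a replication fork protein, was nearest to Cdk4 at a distance of 0.0294, followed by the pseudogene Impdh2-ps at 0.0411, against a median of 0.354 over all tested genes. Nucks1 (0.0416) and the mitotic cyclin Ccnb1 (0.0492) were nearest to Cdkn2c. Mbd4 (0.0317) and Enoph1 (0.0369) were nearest to Cdk2, and Borcs8 and Irgq (0.0448 each) to Cdkn1b. Of these neighbours Mbd4 alone was not called itself (log2 change 0.23, adjusted p = 0.102 by limma). The 8 samples divide into 2 genotypes, so genes that differ between the genotypes to the same extent come out as close.

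The Lck-cre samples differed among themselves, and replicate 6 lay nearest to the control mean in 5 of the 9 genes (Ccnd2, Cdk2, Cdk4, Cdkn1b and Cdkn2c), which include all 4 called ones. Replicate 6 was the nearest in 45.7% of all tested genes and in 66.1% of all called genes. Ccnd2 and Cdk2 followed the order of Sting1 over the 4 samples, replicate 8 highest, then 5, 7 and 6, as did Cdkn1a, whereas Cdkn1b and Ccnd3 had exactly the reverse order. Among all tested genes 8.41% had the order of Sting1 and 9.33% its reverse. Without replicate 6 the log2 change was 0.71 for Cdk4, 0.48 for Cdkn2c, 0.33 for Cdk2 and -0.43 for Cdkn1b.

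**Figure D5:**
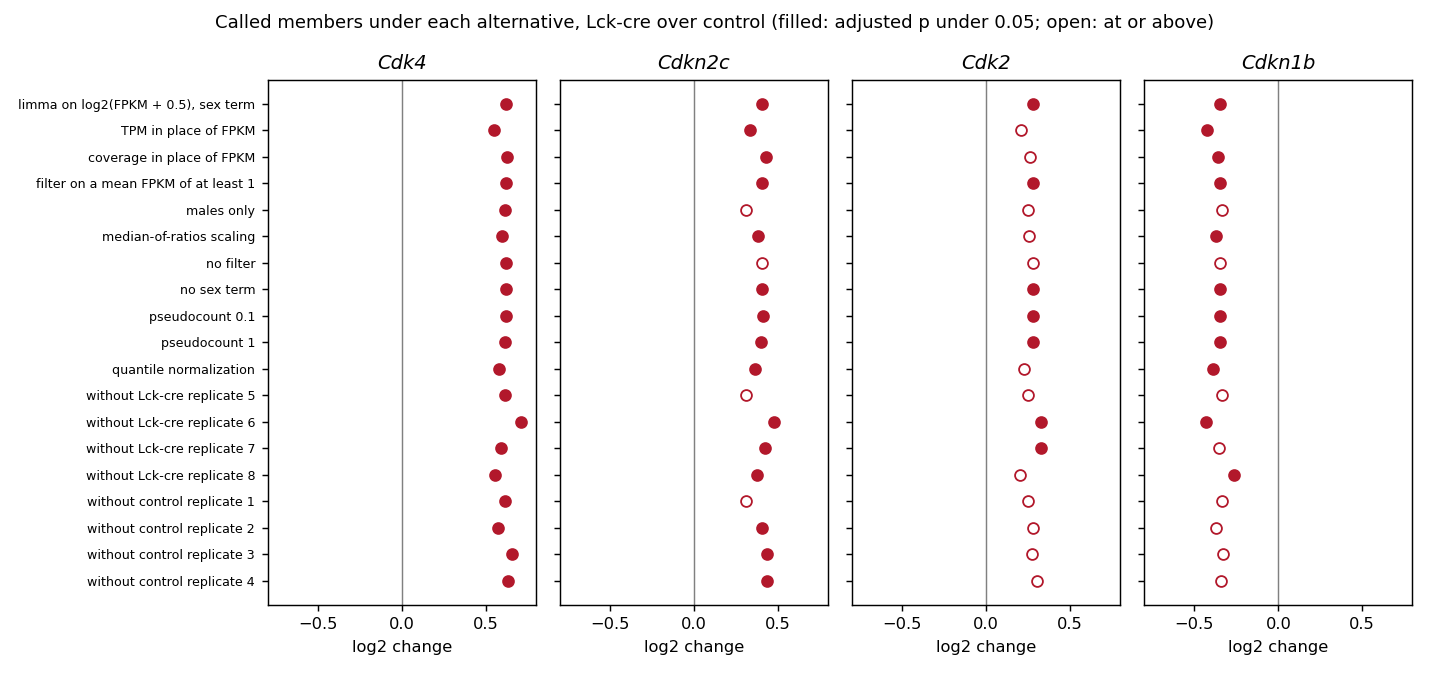
Log2 change (Lck-cre over control) of the 4 called genes under the reported fit (top line) and each alternative, filled where the adjusted p by limma was under 0.05. Cdk4 is filled in every line, while Cdk2 and Cdkn1b are open in most of the fits that leave out 1 sample and no gene crosses 0.

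The genes lie on 7 chromosomes, and their positions are as listed in the files, whose genome build is unnamed. Cdk4 is listed on the plus strand of chromosome 10 from 126899403 to 126903789 and Cdk2 on the minus strand of the same chromosome from 128533808 to 128540900. Cdkn1b is on the plus strand of chromosome 6 from 134897364 to 134902476 and Ccnd2 on its minus strand from 127102125 to 127129156. Cdkn2c lies on chromosome 4, minus strand, from 109518073 to 109524386 and Ccnd3 on the plus strand of chromosome 17 from 47815976 to 47910616. Cdk6 spans 3391485 to 3581008 on chromosome 5, plus strand. Cdkn2d spans 21199706 to 21202703 on chromosome 9, and Ccnd1 144483668 to 144493662 on chromosome 7, both on the minus strand. Of the neighbours on the opposite strand, Tspan31 shares 641 bases with Cdk4, Bysl 361 with Ccnd3 and Pmel 837 with Cdk2. Whether reads were counted by strand is unknown, so those in the shared stretches cannot be assigned to either gene. The pseudogene Ccnd3-ps had a mean of 1.08 FPKM in each group. LTO1 shares 1771 bases with Ccnd1, at 15.2 ± 1.998 FPKM in Lck-cre and 18.02 ± 1.004 FPKM in the controls.

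Promoter windows, 250 bases before to 50 after the transcription start, were taken from RefSeq (build GRCm38.p6) and held 9 windows for 7 of the 9 genes. They are shown for the 4 called genes, with the words that MYC and E2F proteins, activating and repressive ones alike, are known to bind. Capitals mark the E-box CACGTG or an E2F-type word (the word TTCCCGC, the word TTCGCGC, the word TTGCCGC or the word TTGGCGC), searched on both strands. The windows run 5′ to 3′ on the strand of the gene.
Cdk4 (chr10:127063285-127063584, plus strand): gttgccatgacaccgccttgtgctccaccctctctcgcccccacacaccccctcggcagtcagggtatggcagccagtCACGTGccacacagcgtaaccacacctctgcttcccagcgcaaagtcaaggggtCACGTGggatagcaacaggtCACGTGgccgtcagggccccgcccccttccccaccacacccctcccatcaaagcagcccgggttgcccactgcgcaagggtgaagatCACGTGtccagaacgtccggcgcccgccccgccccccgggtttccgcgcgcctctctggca
Cdk2 (chr10:128705002-128705301, minus strand): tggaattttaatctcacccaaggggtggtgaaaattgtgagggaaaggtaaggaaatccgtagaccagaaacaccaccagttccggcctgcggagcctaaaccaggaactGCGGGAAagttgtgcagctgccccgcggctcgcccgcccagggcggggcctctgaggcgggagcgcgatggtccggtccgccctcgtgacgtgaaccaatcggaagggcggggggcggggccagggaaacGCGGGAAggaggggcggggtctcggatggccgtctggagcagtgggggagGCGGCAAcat
Cdkn2c (chr4:109666707-109667006, minus strand, the first of 2 windows): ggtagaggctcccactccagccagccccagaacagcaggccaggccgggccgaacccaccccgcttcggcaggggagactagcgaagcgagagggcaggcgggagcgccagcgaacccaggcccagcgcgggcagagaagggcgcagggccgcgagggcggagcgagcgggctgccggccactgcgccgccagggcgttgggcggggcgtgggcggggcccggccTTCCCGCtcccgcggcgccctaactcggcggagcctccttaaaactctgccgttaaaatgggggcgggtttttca
Cdkn1b (chr6:134920151-134920450, plus strand): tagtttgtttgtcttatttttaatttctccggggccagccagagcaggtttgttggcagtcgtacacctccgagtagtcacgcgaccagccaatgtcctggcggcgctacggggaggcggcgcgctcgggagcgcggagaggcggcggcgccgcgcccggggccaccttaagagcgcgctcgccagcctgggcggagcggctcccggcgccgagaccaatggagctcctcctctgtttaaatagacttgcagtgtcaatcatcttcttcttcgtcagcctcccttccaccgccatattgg

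The Cdk4 window held 4 E-boxes, the first letters of which lie 172, 118, 98 and 11 bases before the start, and no E2F-type word. Of 32851 promoter windows 7.15% held an E-box, and 8 windows held at least 4. The Cdk2 window held 3 E2F-type words, and 9.57% of all windows held at least 1 and 43 windows at least 3. The first Cdkn2c window held 1 E2F-type word, 25 bases before the start, and its second window held 1 E-box. No letters of either kind were found in the Cdkn1b window, nor in those of Ccnd3 and Cdkn2d, and that of Cdk6 held 1 E-box. A match is a description of the letters, and binding of any factor was not measured.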

How the data were processed

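Total RNA of sorted DP thymocytes from 4 Lck-cre and 4 control samples was extracted on columns and a service company sequenced it, per the labels' protocols. HISAT and Bowtie2 are named in the submitters' processing notes, without versions or roles. Build, annotation, quantifier and strandedness were not given in the sources used here. Per the file headers, the authors deposited for each gene a per-base coverage signal, FPKM and TPM. Column sums of FPKM ran over 437778 to 457145 (Lck-cre) and 413835 to 437426 (control), and each TPM column summed to 1000000. Without read counts the depth is unknown beyond the coverage ratio given above, and no counting interval is given.

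Entries that share a gene ID were summed. Genes that reached 1 FPKM in 4 or more samples entered limma 3.58.1 (R 4.3.3) as log2(FPKM + 0.5). The model had sex and genotype, moderated variances with an intensity trend, two-sided tests, and p adjusted by Benjamini-Hochberg over all 12337 genes. Members below the filter were compared by exact permutation of the means, two-sided, over the 70 assignments (SciPy 1.17.1). Folds are ratios of mean FPKM, and fold intervals come from limma on the log2(FPKM + 0.5) scale, which understates changes of low genes. The fit was tested on simulated data in which 100 genes were given a log2 change of 0.5 and 100 a change of 1. It called 55% of the former and 95% of the latter. It also called 9 unchanged genes. The adjusted p depends on the share of changed genes, which was far smaller there than the 25.8% called in the data. The changed genes were also taken from above a low level. These recovery shares are therefore not those of the reported fit, in which changes of 0.5 or less can still be missed.

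The members and the lists were chosen with earlier results of these data known. Of 124 list entries, 122 matched by symbol and 2 by gene ID (Skp1a, and Tcrg-C1, which is Trgc1 and was counted once). The rule for named genes took the 9 members, Sting1, the other CDK inhibitors, up to 2 genes that rose and 2 that fell per pathway list by smallest p, and the 2 nearest genes of each called member. Rb1, Notch1, Foxo1, the overlapping genes and the markers were named outside that rule, after their values were seen, as were the promoter words. One B cell marker is not reported here, nor is the sum of that list. Pearson correlations of log2 values between samples were 0.983 to 0.991 in Lck-cre, against 0.985 to 0.992 in the controls. Alternatives were quantile normalization, TPM, median-of-ratios scaling, a pseudocount of 0.1 or 1, all genes unfiltered, a filter on the mean, no sex term, males only, leaving out each sample, and an adjusted p under 0.01. Coverage in place of FPKM was added after the data were seen.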

Additional observations from a re-analysis of the deposited data

How the results depend on the processing

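Cdk4 rose under all 18 alternatives, with log2 changes of 0.55 to 0.71, and the other called genes kept their direction in each. The number of called genes among the 9 was 4 in the reported fit, 1 with males only, 1 with no filter, 1 with an adjusted p under 0.01, and 1 to 4 when 1 sample was left out. The number of all genes called was 3180, against 652 with males only, 1056 with no filter and 512 with an adjusted p under 0.01, and 647 to 3889 when 1 sample was left out. Of the 60 G1 to S genes 23 were called, against 6 with males only, 7 with no filter and 5 with an adjusted p under 0.01, and 6 to 25 when 1 sample was left out. Without Lck-cre replicates 5, 7 and 8 in turn, 647, 1802 and 2079 genes were called, and without control replicates 1, 2 and 4 in turn 653, 1256 and 2111. Of the 9 genes, 1 was called without either female and 2 without control replicate 2, 3 or 4, and of the G1 to S genes 6 without either female. Fits without a female compare 3 males with 3 males, since the other female then sets only the sex term, and the no-filter fit adjusts over 28851 genes. Genes that were not called changed sign in some fits: Ccnd3 with quantile normalization (-0.085), Cdk6 with males only, without Lck-cre replicate 5 and without control replicate 1 (-0.092 each), and Cdkn2d with TPM (-0.047), with quantile normalization (-0.017), without Lck-cre replicate 7 (-0.028) and without control replicate 2 (-0.014). Leaving out 1 sample gave log2 changes of -0.092 to 0.158 for Cdk6 and -0.028 to 0.095 for Cdkn2d. Cdkn2c, Cdkn1b and Cdk2 also missed the threshold with no filter (adjusted p of 0.0622, 0.0935 and 0.116 by limma) and Cdk2 with quantile normalization, median-of-ratios scaling and coverage (0.101, 0.0632 and 0.0547). The fold of Ccnd2 was 4.73 to 7.35 when 1 sample was left out, where the smallest exact permutation p is 0.0571, so its p cannot pass there. No paired analysis was made, because the labels give no pairing of samples between the groups.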

Other observations

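Tspan31, a tetraspanin gene whose end overlaps that of Cdk4 on the opposite strand, also rose, and its log2 change was larger in value than that of Cdk4, a difference that was not tested. It lay at 14.1, 7.90, 8.79 and 13.1 FPKM in Lck-cre replicates 5 to 8 and at 5.61, 3.92, 4.02 and 4.19 FPKM in control replicates 1 to 4, with a log2 change of 1.19 (SE 0.14, adjusted p = 0.00576 by limma). The groups did not overlap, and the part of shared reads in either gene was not tested. Bysl, which overlaps Ccnd3 in the same way, stood at 9.62 ± 0.733 FPKM in Lck-cre and 7.94 ± 0.449 FPKM in the controls (SD, n = 4 each, adjusted p = 0.0370 by limma), while Ccnd3 did not pass.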
